A study of Mus musculus with 14 samples.

Results

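The regions described here are stretches of 3′ UTR that were crosslinked to AGO2 in mouse macrophages and that hold a match to the seed of miR-22-3p. In PAR-CLIP, cells take up a photoreactive uridine, ultraviolet light crosslinks it to the bound protein, and the crosslinked base is read as a T-to-C conversion. Overlapping reads were joined into groups by the submitters. A group was taken as a member if it was annotated as 3′ UTR, had at least 1 conversion, and held a match to bases 2 to 8 of miR-22-3p (7mer-m8), to bases 2 to 7 followed by an A (7mer-A1), or to both (8mer). These conditions gave 284 groups among 33419 converted 3′ UTR groups and 151909 groups in all: 159 of 19202 converted 3′ UTR groups in the library labelled wild type (WT) and 125 of 14217 in the library labelled knockout (KO). Groups from both libraries that overlapped by at least 1 base on the same strand were joined into 204 sites in 198 named genes.

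The cells were C57BL/6 bone marrow derived macrophages, grown from marrow of femur and tibia in medium with 20% of L929 cell supernatant, which supplies the growth factor CSF1. The labels give 6 days of culture in the protocol and 7 days in the design text. WT stands for ELAVL1f/f without Cre, and KO for ELAVL1f/f with LysM-Cre, a recombinase inserted in the lysozyme gene Lyz2 and active in myeloid cells, so both genotypes carry the floxed allele and the KO cells alone carry the Cre. Each genotype had 1 AGO2 PAR-CLIP library (antibody WAKO 2D4) and 4 mRNA libraries numbered 1 to 4, and small RNA was sequenced from WT 1 and 2 and KO 3 and 4. The labels do not say whether numbered libraries came from separate animals or cultures; p-values therefore rest on library-to-library spread, which may be technical. With 1 PAR-CLIP library per genotype, no difference between the PAR-CLIP libraries could be tested.

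MicroRNAs guide AGO2 to mRNAs mainly through their seed, the bases near the 5′ end, and the bound mRNA is then degraded or translated less. miR-22-3p is a broadly expressed miRNA with reported targets in chromatin regulation, in signalling through phosphoinositides and in the cytoskeleton. ELAVL1, also called HuR, binds uridine-rich stretches of 3′ UTRs, stabilises many mRNAs, and has been described both to hinder and to help miRNA binding nearby.

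The mature miRNA is shown with its seed (bases 2 to 8) in capitals, as RefSeq lists it for mouse, because every match below is read from it.
mmu-miR-22-3p: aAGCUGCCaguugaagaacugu
The following 18 sites are those with most reads among sites found in both libraries, and the 5 leading sites of each library alone (Cndp2 and Atp9b are not shown). They are printed 5′ to 3′ in the sense of the transcript, cut to at most 30 bases, with the match in capitals (GGCAGCT for 7mer-m8, GCAGCTA for 7mer-A1, GGCAGCTA for 8mer). Coordinates are those of the printed bases on mm9 as the group files count them. Whether those files count from 0 or from 1 could not be settled, so positions may be off by 1 base.
Tns3 (7mer-A1, chr11:8332502-8332531, minus strand): ttccagttactcatatGCAGCTAaactcca
Dhrs9 (8mer, chr2:69241506-69241534, plus strand): tttttttcttccatGGCAGCTAcaacttg
Ptger4 (7mer-m8, chr15:5184405-5184434, minus strand): caacttGGCAGCTtttttctactggacagg
Ccdc50 (8mer, chr16:27447410-27447439, plus strand): accacttactcaatatcaatGGCAGCTAtg
Ywhaz (8mer, chr15:36701356-36701383, minus strand): tctccttattccctcttGGCAGCTAatg
Glb1 (7mer-m8, chr9:114315713-114315738, plus strand): actgccatcccttaatGGCAGCTctg
Zcchc24 (7mer-A1, chr14:26534291-26534319, minus strand): tggacagtcacttcttctaGCAGCTActg
Fam168b (8mer, chr1:34870878-34870907, minus strand): tggcaagtgtGGCAGCTActggtcctttcc
Ehd1 (7mer-m8, chr19:6299510-6299539, plus strand): tcaacctttatGGCAGCTtcctggagcccc
Phf8 (8mer, chrX:148067723-148067744, plus strand): atctttcaatGGCAGCTAattg
Lhfpl2 (7mer-A1, chr13:94964898-94964927, plus strand): tgaGCAGCTAttctttactctgcttttata
H6pd (7mer-A1, chr4:149354849-149354878, minus strand): cagactGCAGCTAgccctcctcacactacc
Ccl9 (7mer-m8, chr11:83388532-83388561, minus strand): aattcccacttagatGGCAGCTcaaactat
Abl2 (7mer-A1, chr1:158573728-158573757, plus strand): acttgaGCAGCTAcacatactctgcactta
Samd4b (7mer-A1, chr7:29186491-29186520, minus strand): gtgggctggcGCAGCTAtacattctgatat
Cant1 (7mer-A1, chr11:118268746-118268775, minus strand): tagggattgatcactgctGCAGCTAtcttc
Arid3b (7mer-m8, chr9:57638530-57638557, minus strand): atcaaatactctttcctcaGGCAGCTtg
Clp1 (7mer-m8, chr2:84563610-84563629, minus strand): caatcttattaaGGCAGCTg

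In the 11 printed sites with a 7mer-m8 or 8mer, the base just before the capitals faces base 9 of miR-22-3p, an A. It is a t, a uridine in the RNA, in 9 of the 11, and Arid3b and Clp1 are the ones without it. Sense orientation was checked on groups annotated as miRNA: the mature sequence stood in the printed sense in 119 plus-strand and 94 minus-strand groups of the WT library, and in the opposite sense in 3 and 3.

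The most heavily read members were few. The member groups held 26442 reads in WT (1.54% of the reads in converted 3′ UTR groups) and 16881 in KO (1.16%), and the 10 largest groups held 66.6% and 68.6% of these. A Tns3 site (tensin 3, a focal adhesion protein) had 6655 reads in WT and 3991 in KO. The Dhrs9 site (a retinol dehydrogenase) had 2711 and 1600 reads, and the Ptger4 site (a receptor for prostaglandin E2) had 1803 and 1238. The site of Cndp2, a cytosolic dipeptidase, had 1668 and 1645 reads. These 4 sites thus led both libraries, and they include each of the 3 match types. The Ccdc50 site had 1413 and 633 reads, and the site of Ywhaz, which encodes 14-3-3 zeta, had 1007 and 746. The Glb1 site (lysosomal beta-galactosidase) differed from these in having more reads in KO, 773 against 478. The Zcchc24 site had 642 and 295 reads, that of the endosomal recycling gene Ehd1 361 and 359, and that of the histone demethylase gene Phf8 367 and 305.

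Outside these leading sites the groups were small. The median member had 32 reads in WT and 31 in KO, against 19 and 21 over converted 3′ UTR groups as a whole, and 37 and 23 members had 100 reads or more. Conversion was nearly complete where it occurred: every read was converted in 98 of 159 WT members (61.6%) and 80 of 125 KO members (64.0%). At the Tns3 site 96.8% of the WT reads and 97.8% of the KO reads were converted, and at the Dhrs9 site 86.4% and 87.8%. The reads converted at 1 position in 113 WT and 101 KO members. At the edge of the conversion condition, the smallest member was an Alg1 group with 5 reads, all converted, and 21 WT and 25 KO groups had a match in a 3′ UTR but no conversion. Those unconverted groups had a median of 12 and 16 reads, and the largest in WT was a Rad51l3 group with 37 reads.

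Match types were shared out similarly in the 2 libraries. In WT, 82 of 159 members (51.6%, exact 95% interval 43.5 to 59.6%) held a 7mer-m8, 39 (24.5%, 18.1 to 32.0%) an 8mer and 38 (23.9%, 17.5 to 31.3%) a 7mer-A1. In KO the numbers were 76 of 125 (60.8%, 51.7 to 69.4%), 25 (20.0%, 13.4 to 28.1%) and 24 (19.2%, 12.7 to 27.2%). These and all intervals on PAR-CLIP shares are Clopper-Pearson intervals that cover counting error only. The 7mer-A1 type held the largest part of the member reads, 42.1% in WT and 41.6% in KO, of which the Tns3 site is the main one. The median reads of 8mer members were 45 in WT and 35 in KO, against 27.5 and 25 for 7mer-m8 members. For 7mer-A1 members they were 37.5 and 45.5, so in KO the 7mer-A1 median was above that of the 8mers.

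Members made up a similar small share of AGO2-bound 3′ UTR groups in both libraries, 0.828% (0.705 to 0.967%) in WT and 0.879% (0.732 to 1.05%) in KO, and the intervals overlap. The match was not particular to 3′ UTRs. It stood in 1.25% (1.02 to 1.51%) of converted coding groups in WT and 1.37% (1.10 to 1.68%) in KO, above the 3′ UTR shares. Coding groups were richer in G and C, 44.2% and 44.7%, than 3′ UTR groups, 37.9% and 38.1%, and the match is itself rich in G and C; the part of base composition in this difference was not tested. Converted intergenic groups held it in 0.528% (0.375 to 0.721%) and 0.425% (0.301 to 0.583%); the interval overlaps that of the 3′ UTR groups in WT but not in KO. Intergenic groups were also shorter, with a median of 20 and 19 bases against 25 in both libraries. Unconverted 3′ UTR groups held it in 0.722% (0.448 to 1.10%) and 0.781% (0.506 to 1.15%), with intervals that overlap those of the converted 3′ UTR groups.

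A uridine facing base 9 of miR-22-3p was the most frequent feature next to the match. Among 7mer-m8 and 8mer members it was present in 94 of 121 WT groups (77.7%, 69.2 to 84.8%) and 82 of 101 KO groups (81.2%, 72.2 to 88.3%). The base facing position 10 was a uridine in 25.8% and 26.7%. The heavily read Dhrs9, Ptger4, Ccdc50 and Ywhaz sites have it. Converted coding groups with such a match had it in 61 of 84 in WT (72.6%, 61.8 to 81.8%) and 55 of 68 in KO (80.9%, 69.5 to 89.4%), close to the 3′ UTR members. Unconverted 3′ UTR groups with such a match had it in 2 of 20 groups in WT (10%, 1.23 to 31.7%) and 5 of 22 in KO (22.7%, 7.82 to 45.4%). The rule asked for a conversion, which needs a uridine that can be crosslinked, so the last values are a description and support no feature of the members. A uridine anywhere in the 4 bases before the core was present in 93.1% of WT and 93.6% of KO members, and in 42.9% and 80% of the unconverted groups. The part of the conversion condition in the base 9 share was not tested. Among 7mer-A1 members, where base 8 is unpaired, the share was 36.8% (21.8 to 54.0%) in WT and 33.3% in KO.

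**Figure D1:**
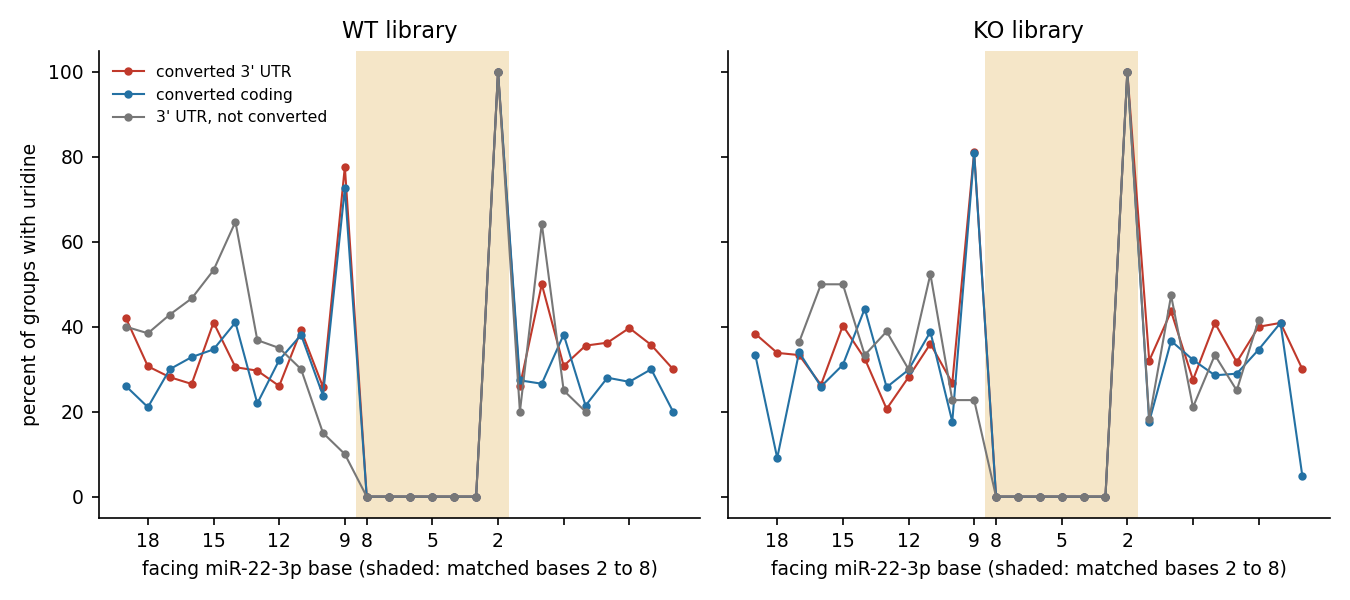
Percent of groups with a 7mer-m8 or 8mer match that have a uridine at each place around the match (y axis), by the miR-22-3p base that the place faces (x axis, upstream to the left), in the WT and the KO PAR-CLIP library; places with under 10 groups are not drawn. In converted 3′ UTR and coding groups the place facing base 9 stands out at 77.7% and 81.2% of the 3′ UTR groups, while unconverted 3′ UTR groups, set apart by the conversion that the rule used, are at 10% and 22.7% there; the shaded places are fixed by the match.

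The match lay toward the 3′ end of the group. Its core of 6 bases was in the 3′ part, past the group's middle, in 69.8% of WT and 73.6% of KO members, with a median of 14 and 13 bases before it and 6 and 5 after it. A G ended 86.2% of the WT members and 85.6% of the KO members, and 79.8% and 78.1% of the other converted 3′ UTR groups. A stretch upstream that could pair with bases 13 to 16 of the miRNA (CTTC, anywhere before the match) was present in 17 of 100 WT members and 7 of 74 KO members with at least 12 bases before the core (17% and 9.46%). Converted coding groups of that kind had it in 23.8% and 21.4%, and unconverted 3′ UTR groups in 2 of 10 and 2 of 6, so it was not more frequent in the members.

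Few members held a seed match to another of the 21 miRNA families searched, which include let-7, miR-21, miR-27 and miR-155. Such a match occurred in 11 of 159 WT members (6.92%, 3.50 to 12%) and 5 of 125 KO members (4.00%, 1.31 to 9.09%), against 25.2% and 26.3% of the other converted 3′ UTR groups. The members' sequences include the miR-22 match itself; its part in this difference was not tested. Of the sequence elements of the kind bound by ELAVL1, the pentamer ATTTA was less frequent in the members. It stood in 1.89% of WT and 2.40% of KO members against 7.85% and 6.88% of the other groups (intervals of the members 0.391 to 5.41% and 0.498 to 6.85%). The part of the miR-22 match, which takes up some bases of each member, was not tested here either. A run of at least 5 uridines stood in 9.43% and 8% of the members against 11.2% and 10.4%. The intervals for the uridine run (5.38 to 15.1% and 3.90 to 14.2%) include the shares of the other groups.

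Of the 204 sites, 80 had a member group in both libraries, always with the match at the same position, 79 had one in WT alone and 45 in KO alone. As a share of each list, 50.3% (42.3 to 58.3%) of the WT members and 64.0% (54.9 to 72.4%) of the KO members were shared. The share rose with the reads of a group: 34 of 37 WT members and 23 of 23 KO members with 100 reads or more were shared, but 6 of 38 and 11 of 34 with 10 to 19 reads. Counted against any converted 3′ UTR group of the other library, 57.2% (49.2 to 65.0%) of the WT and 68.8% (59.9 to 76.8%) of the KO members overlapped one, compared with 39.5% and 53.8% of converted 3′ UTR groups without the match. Within each of the 5 classes of reads, in both libraries, the members' interval includes the share of the groups without a match. In WT the shares were 18.4% against 20.4% at 10 to 19 reads, 54.9% against 41.7% at 20 to 49 and 73.7% against 75.7% at 50 to 99. In KO they were 35.3% against 35.2%, 67.4% against 54.3% and 90.5% against 89.5%.

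**Figure D2:**
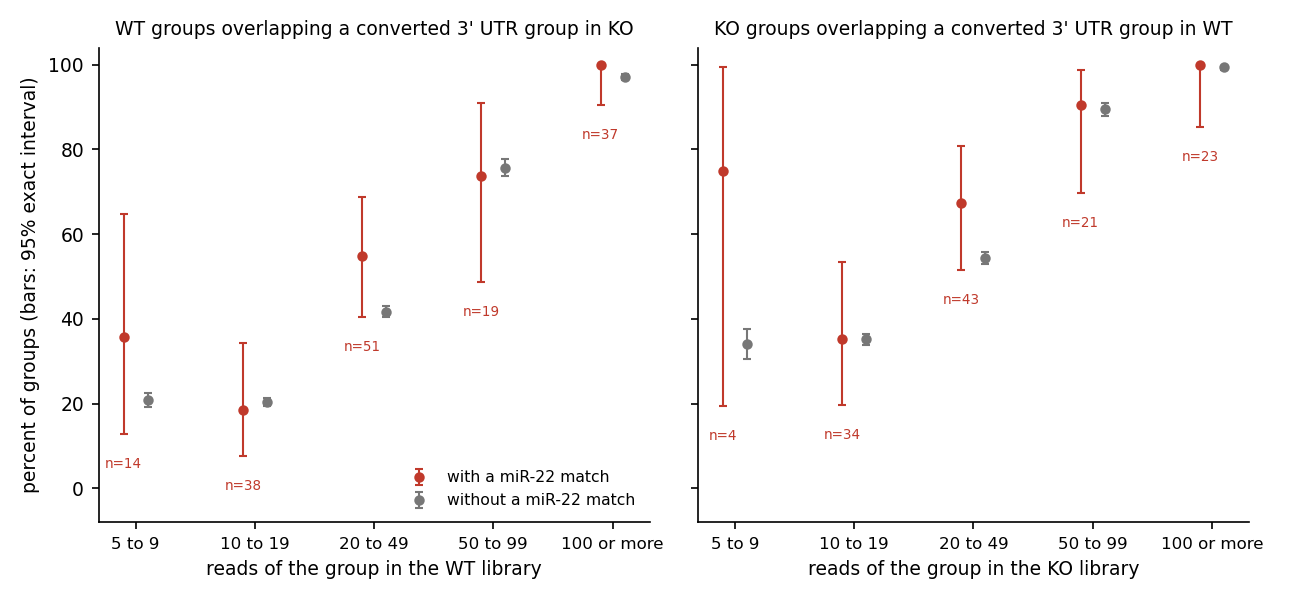
Percent of converted 3′ UTR groups of one PAR-CLIP library that overlap a converted 3′ UTR group of the other (y axis), by the reads of the group (x axis), for groups with a miR-22 match (red, number of groups beside each) and without (grey); bars are exact 95% intervals. Both kinds of group rise from under 40% at 10 to 19 reads to 97.2% or more at 100 reads or more.

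Sites found as members in 1 library were of 2 sorts. In 62 of the 79 WT-alone sites and 34 of the 45 KO-alone sites the other library listed no group there, and these were small, with a median of 16.5 and 16 reads. Counted over groups, 61.0% of WT and 72.8% of KO members overlapped a listed group of any kind in the other library, against 43.2% and 56.5% of the other converted 3′ UTR groups. In the rest the other library had a group at the place that did not meet the conditions: it was unconverted in 6 and 5 sites, and was converted but did not include the match in 11 and 6. The leading single-library sites were mostly of the second sort. The Fam168b site had 800 reads in WT, and a KO group of 652 reads overlapped it without the match. The Lhfpl2 site (a tetraspan membrane protein) had 397 reads in WT beside a KO group of 422, and the H6pd site (a dehydrogenase of the endoplasmic reticulum) had 105 beside 27. The site of the tyrosine kinase gene Abl2 had 72 reads beside 33. The site of Atp9b, a lipid flippase, had 85 reads in WT and no KO group. Among KO-alone sites, that of the chemokine gene Ccl9 had 74 reads beside a WT group of 70 without the match, and that of Samd4b, an RNA-binding protein, had 64 beside 41. The Cant1 (a nucleotidase), Arid3b and Clp1 (an RNA kinase) sites had 58, 50 and 49 reads beside unconverted WT groups of 7, 31 and 31. Among the printed 7mer-m8 and 8mer matches, those of Arid3b and Clp1 are the ones without a uridine facing base 9. Of the 10 sites named here, 9 therefore had AGO2 reads in both libraries. An 8mer site in Csf1r, the receptor for CSF1, had 57 reads in WT beside a KO group of 40 without the match.

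Reads were compared as RPM, scaled to the reads in all listed groups of a library (6287870 in WT, 6445262 in KO), which are not the sequencing depth. Over the 80 shared sites the median log2 ratio of KO over WT was -0.52, with 52 sites lower and 28 higher in KO. Groups without a match that paired 1 to 1 between the libraries had a median of -0.26 over 7158 pairs, and of all 7252 such pairs 60% were lower in KO. A ratio at least 2-fold lower was found for 23 of the 80 sites (background 23.3%), and one at least 2-fold higher for 7 (background 13%). By reads summed over both libraries, the median was 0.12 for 11 miR-22 sites and 0.13 for 2316 pairs without a match under 50 reads, -0.54 for 43 and -0.38 for 3341 from 50 to under 200 reads, and -0.55 for 26 and -0.53 for 1501 at 200 reads or more. The medians of sites and pairs thus lay apart mainly in the middle class. Converted 3′ UTR groups as a whole held a smaller part of the KO reads, by -0.28 on the log2 scale, and scaled to those reads alone the medians were -0.24 for the miR-22 sites and 0.02 for the pairs without a match. On that scale 15 of the 80 sites were at least 2-fold lower (background 15.9%) and 11 at least 2-fold higher (background 19.1%). Fewer sites were thus lower and more were higher than before, and the background moved the same way. The scaling shifts sites and pairs by the same amount, so the distance between their medians did not change.

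**Figure D3:**
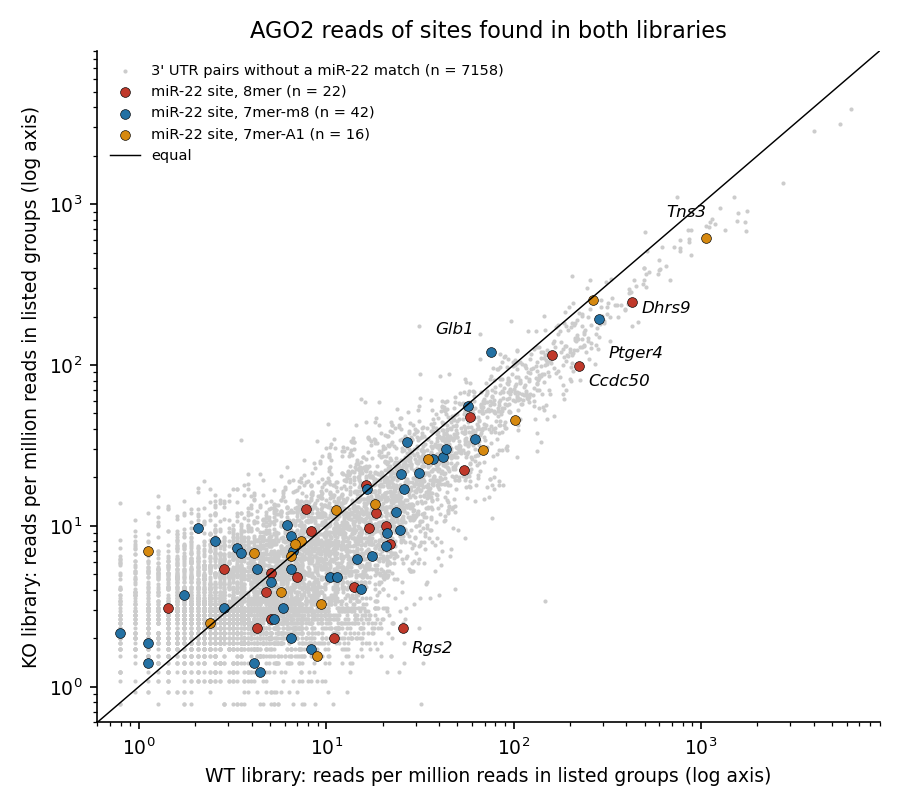
Reads of a group as RPM (scaled to the reads in listed groups) in the WT (x axis) and KO (y axis) PAR-CLIP library, both on log axes, for the 80 shared miR-22 sites by match type and for 7158 pairs of 3′ UTR groups without a match (grey); the line marks equal values. The leading sites lie within the grey cloud and mostly below the line, and Glb1 lies above it.

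Single sites spread around this median. The lowest ratio was at the 8mer of Rgs2, a regulator of G protein signalling, with 161 reads in WT and 15 in KO (log2 ratio -3.46). Slc36a4 had 56 and 10 reads and Sgsh 69 and 13. The highest ratios were at 2310008H04Rik, with 7 and 45 reads (2.65), and Bri3bp, with 13 and 63 (2.24). Among the leading sites the log2 ratio was -0.77 for Tns3, -0.80 for Dhrs9, -1.19 for Ccdc50, -0.58 for Ptger4 and 0.66 for Glb1. Klf6, the gene with most sites (a zinc finger transcription factor), had 3 sites, all 7mer-A1: 71 and 81 reads at one, 26 and 44 at the second, and 54 reads in WT alone at the third. The genes Rgs2, Slc36a4, Sgsh, 2310008H04Rik and Bri3bp were chosen after their ratios were seen.

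miR-22-3p itself was abundant on AGO2 in both libraries. The group that holds it had 103564 reads in WT, 4.30% of the reads in miRNA groups, and 94050 in KO, 4.16%, and its locus ranked 6 in both. In the small RNA libraries it made up 0.419% and 0.421% of the miRNA counts in WT 1 and 2, and 0.355% and 0.317% in KO 3 and 4, at ranks 25 to 29. Its share of AGO2-bound miRNA reads was thus several times its share of small RNA counts in each genotype; the methods count different things, and the reason was not tested. Scaled by TMM, the level was 4106 and 4049 CPM in WT and 3822 and 3126 CPM in KO. Both KO values were below both WT values, but the difference was not past the threshold (log2 fold change -0.23, SE 0.21, edgeR quasi-likelihood adjusted p = 0.737, where 5.96% of 369 miRNAs were called). With WT numbered 1 and 2 and KO 3 and 4, genotype and number cannot be told apart here. The other strand of the hairpin, miR-22-5p, had 0.00785 to 0.0116% of the counts.

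The mRNA data were used to ask how strongly the genes with sites are expressed and whether they differ between genotypes. Library totals ran from 8160789 to 25030262 counts. Elavl1 itself was not lower in the libraries labelled KO. It had 65.9, 61.2, 62.6 and 64.2 CPM in WT 1 to 4 and 76.8, 64.1, 64.9 and 72.4 CPM in KO 1 to 4. These counts are per gene and can include exons outside a deletion. They do not show the loss that the label names, and they cannot tell whether an exon was deleted. Every direction below is that of the libraries labelled KO. Lyz2, which carries the Cre insertion, was lower in every library labelled KO (3723 to 6142 CPM against 9949 to 15451 CPM). All 8 macrophage markers exceeded 1 RPKM in every library, with a summed level of 7811 to 11916 RPKM in WT and 3444 to 5759 in KO, Lyz2 included; the 8 stromal markers summed to at most 7.87 RPKM and were higher in numbers 3 and 4 (1.24 to 7.87) than in 1 and 2 (0.200 to 0.468). Summed neutrophil markers reached 29.6 RPKM and endothelial ones 5.37, with mast cell, B cell, T cell and erythroid lists at most 2.37. Libraries numbered 3 and 4 stood apart from those numbered 1 and 2: 51.2% of all genes tested differed between these sets (edgeR quasi-likelihood, adjusted p under 0.05), whatever the genotype.

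Of the 198 genes, 197 were matched to the count tables and all 197 passed the filter on low counts. Their median level was 8.75 RPKM, against 7.43 for 5974 other genes with converted 3′ UTR groups and 5.43 for all 14019 genes tested. The highest were Csf1r at 181 ± 52.4 RPKM in WT (SD, n = 4) and 180 ± 39.6 in KO, the small GTPase genes Arf3 (173 ± 65.0 and 184 ± 61.9) and Rab5c (171 ± 42.1 and 170 ± 47.2), BC005537 (179 ± 49.3 and 143 ± 28.5) and Ehd1 (145 ± 73.6 and 152 ± 84.1). In each of these 5 genes the 2 genotypes overlapped. Their AGO2 groups ranged widely: Ehd1 is among the 10 leading shared sites with 361 and 359 reads, Csf1r had 57 reads in WT alone, Rab5c 20 in WT alone, Arf3 7 and 12, and BC005537 19 in KO alone. Over the sites, AGO2 reads and RPKM were nearly unrelated (Spearman's rho 0.03 over 159 WT sites and 0.04 over 124 KO sites, a description of points that share a library). Listed groups have at least 5 reads and members at least 1 conversion, so sites with less AGO2 signal are missing. The part of this selection in the rho values was not tested.

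Dhrs9 combined one of the 3 largest member groups of each library (the second in WT, the third in KO) with a low mRNA level. Its mRNA (ENSMUSG00000027068) had 0.0692, 0.840, 6.78 and 5.23 CPM in WT 1 to 4 and 0.255, 0.316, 9.20 and 5.37 CPM in KO 1 to 4. It was thus close to 0 in numbers 1 and 2 of both genotypes and present in numbers 3 and 4, by 4.21 on the log2 scale (edgeR quasi-likelihood adjusted p = 0.000205), while the genotypes overlapped (log2 fold change 0.23, SE 1.20). In mean RPKM it stood at 1.01 in WT and 1.19 in KO. Its AGO2 reads in RPM for each RPKM of mRNA came to 427 in WT and 209 in KO, the highest of the sites in both libraries; the next in WT were Phf8 at 43.3 and Ptger4 at 40.9. Which numbered cultures, if any, the PAR-CLIP libraries correspond to is not given in the labels.

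**Figure D4:**
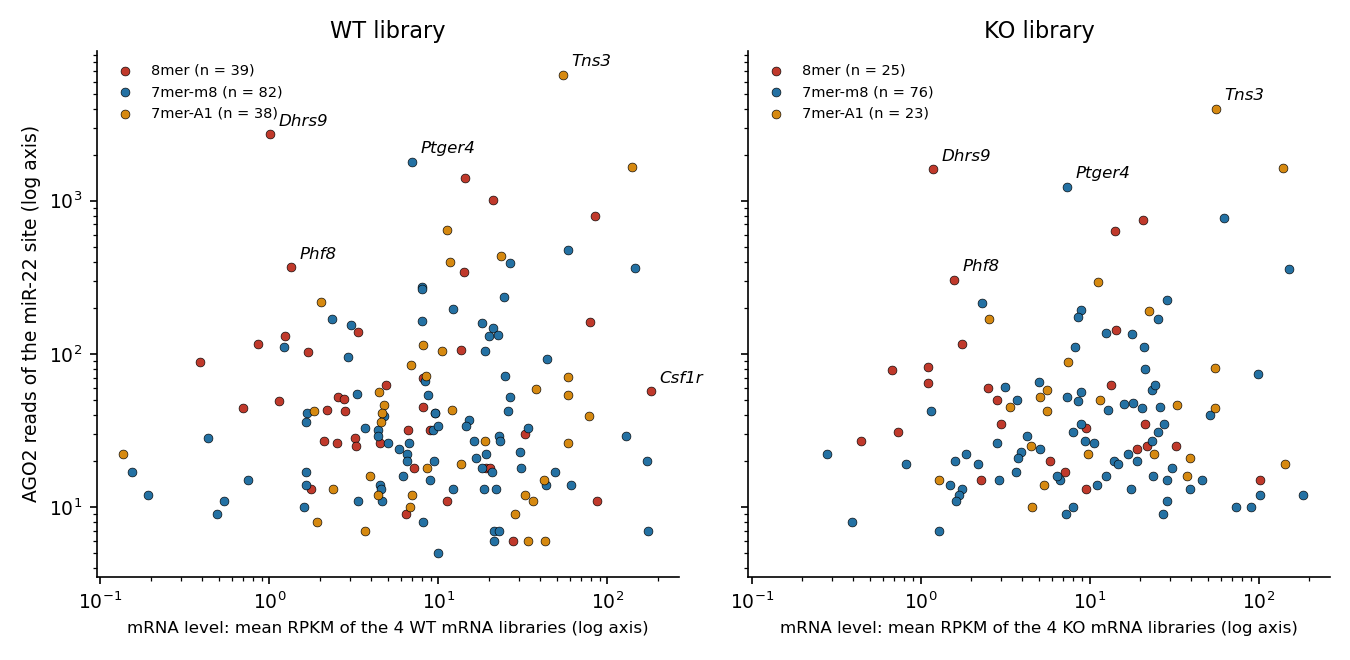
AGO2 reads of each miR-22 site (y axis, log) against the mean RPKM of its gene over the 4 mRNA libraries of the same genotype (x axis, log), coloured by match type, in WT and KO. Over these sites reads and RPKM are nearly unrelated (rho 0.03 and 0.04), and Dhrs9 (2711 and 1600 reads) lies far above the other genes near 1 RPKM.

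In edgeR no gene with a miR-22 site differed between genotypes past the threshold, with or without the library number as a block. In edgeR's quasi-likelihood test 0 of 197 were called (background 0%, 0 of 14019), and 1, lower in KO, had an unadjusted p under 0.05 (background 0.578%, of which 0.264% higher and 0.314% lower). With the library number as a block 0 of 197 were called (background 0.0357%), and 22 (11.2%) had an unadjusted p under 0.05, against a background of 9.42%. Of these 17 were higher and 5 lower in KO (background 4.9% and 4.52%). DESeq2 called 0 without the block (background 0.0214%) and 2 with it, Ptafr and Pdxk (background 0.585%). A difference of the genotype effect between the number sets was called for none of the 197 (edgeR interaction, 0 called, background 0%). As none of the 14019 genes tested was called, this does not show that the effect was the same in both sets.

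The median of the genes lay slightly above 0, and in the fit without a block its size moved with single libraries. The log2 fold change was above 0 in 116 of 197 (background 49.6%; with the block 118, background 50.1%) and below 0 in 81, with a median of 0.03, against 0.00 over all genes tested and -0.01 over the other genes with converted 3′ UTR groups. Number by number the median was 0.043, 0.048, 0.057 and 0.037 (mean 0.046 ± 0.0083, SD, n = 4, on log2 of CPM + 0.5), while that of all genes tested was at most 0.011 and that of the other genes with converted 3′ UTR groups -0.0079, 0.013, -0.024 and 0.013. In numbers 1 to 4, 108, 131, 113 and 114 of the 197 genes were higher in KO. The middle 50% of the 197 log2 fold changes ran from -0.06 to 0.11. By where the groups were found, the median was 0.05 for the 81 genes with members in both libraries, -0.00 for the 75 in WT alone and 0.04 for the 41 in KO alone, and it was 0.06 for the 42 genes with an 8mer. In the fit without a block, the median of the 197 genes was 0.0042 without KO 3 and 0.0069 without KO 1. With the block and 1 number left out, it ran from 0.0345 to 0.0425. No test was made of these medians.

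**Figure D5:**
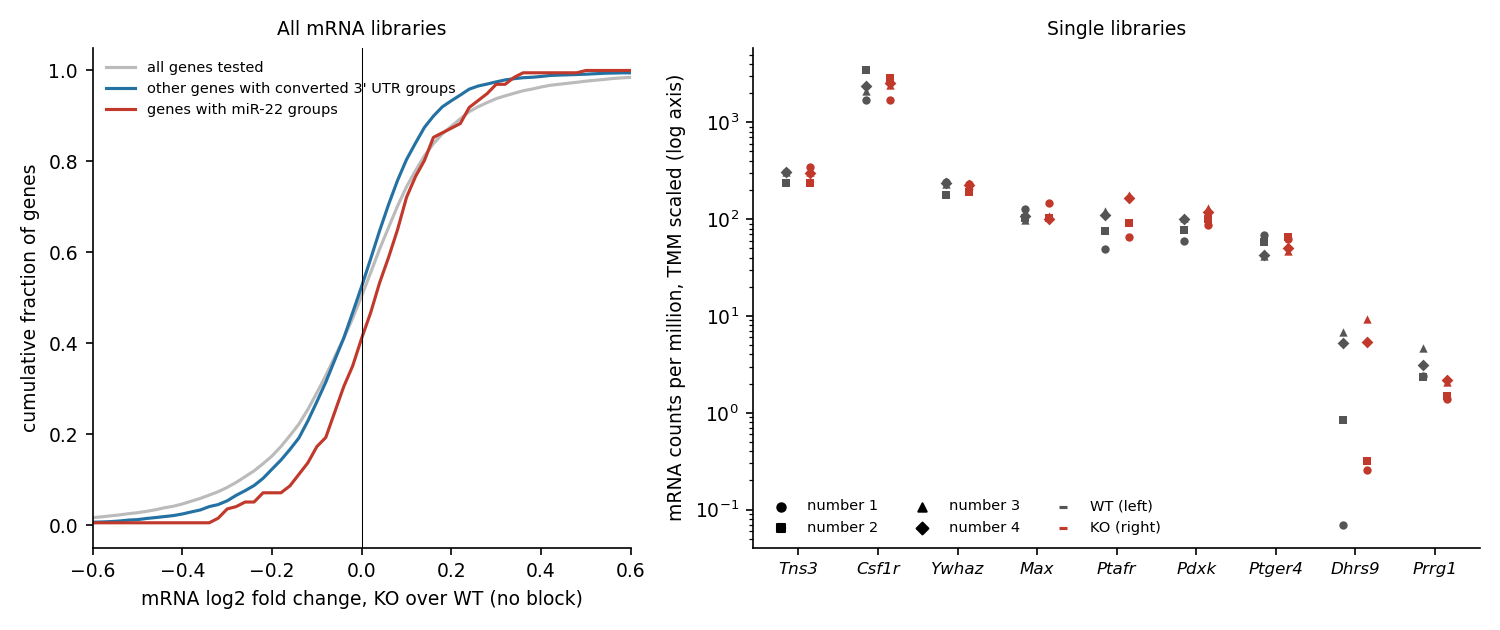
Left, cumulative fraction of genes (y axis) by mRNA log2 fold change of KO over WT (x axis, fit without a block) for the 197 genes with miR-22 groups (red), 5974 other genes with converted 3′ UTR groups (blue) and all 14019 genes tested (grey); right, CPM (log axis) of 9 genes in each mRNA library, by number (symbol) and genotype (WT left, KO right). The red curve lies slightly to the right of the others (median 0.03), and Dhrs9 and Ptafr differ more between the numbers than between the genotypes.

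Ptafr, the receptor for platelet-activating factor, had the largest increase (ENSMUSG00000056529). It had 48.8, 75.1, 121 and 112 CPM in WT 1 to 4 and 65.0, 90.6, 177 and 164 CPM in KO 1 to 4. The groups overlapped, but KO was above WT in each of the 4 numbers. The log2 fold change was 0.48 (SE 0.38) without the block, and 0.45 (SE 0.08, edgeR adjusted p = 0.085; DESeq2 adjusted p = 0.00224) with it. Leaving out 1 library moved the value without the block to between 0.25 (without KO 3) and 0.69 (without KO 1). Pdxk (ENSMUSG00000032788), which makes the active form of vitamin B6, had 59.7, 77.8, 103 and 99.9 CPM in WT and 86.0, 100.1, 132 and 119.5 CPM in KO, higher in 4 of 4 numbers (with the block 0.37, SE 0.08, edgeR adjusted p = 0.135, DESeq2 adjusted p = 0.0286). Both genes had a 7mer-A1 group of 6 reads in WT alone, among the smallest members, so the genes called by 1 tool were not those with strong AGO2 signal.

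The other large values were not called by any fit run. Prrg1 (ENSMUSG00000047996), a membrane protein with a Gla domain, had 2.42, 2.33, 4.66 and 3.10 CPM in WT and 1.40, 1.47, 2.06 and 2.19 CPM in KO. It was the one gene of the 197 with every KO library below every WT library (background 0.435%), and none had every KO library above (background 0.35%). Its log2 fold change was -0.80 (SE 0.32), and with the block -0.79 (SE 0.21, edgeR adjusted p = 0.25). Further down, log2 fold changes were -0.34 for the zinc transporter gene Slc30a4, -0.33 for Pdss1 of ubiquinone synthesis, -0.32 for 9430020K01Rik and -0.32 for BC005537. On the other side they were 0.36 for Rgs2, 0.34 for Ddit4, an inhibitor of mTOR signalling, and 0.34 for Pdp2, a phosphatase of pyruvate dehydrogenase. In the fit without a block, several of these moved with single libraries. Rgs2 had 28.4, 41.5, 74.3 and 116 CPM in WT and 46.4, 36.0, 141 and 109.9 CPM in KO, and Pdp2 had 22.4 CPM in KO 1 but 11.3 to 13.2 CPM in the other 7 libraries. Without KO 3 the Rgs2 value was -0.03, and without KO 1 the Pdp2 value was 0.09 and the Ddit4 value 0.02. Without WT 3 the Slc30a4 value was 0.08, the Pdss1 value -0.10, the 9430020K01Rik value -0.20 and the BC005537 value -0.14. Prrg1 stayed between -0.92 and -0.54 with any 1 library left out. With the block and 1 number left out, none of these genes changed sign. Rgs2 ran from 0.11 to 0.50, Ddit4 from 0.19 to 0.36 and Pdp2 from 0.10 to 0.39. Slc30a4 ran from -0.44 to -0.06, Pdss1 from -0.45 to -0.05, 9430020K01Rik from -0.44 to -0.20 and BC005537 from -0.37 to -0.22.

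The genes with the largest AGO2 groups did not separate by genotype. Tns3 (ENSMUSG00000020422) had 308, 235, 309 and 307 CPM in WT and 344, 237, 310.1 and 301 CPM in KO, a log2 fold change of 0.04 (SE 0.17). Ptger4 had 68.9, 58.3, 41.9 and 42.9 CPM in WT and 62.4, 64.8, 46.5 and 50.4 CPM in KO (0.08, SE 0.21). In both genes the values of WT and KO interleave. Ywhaz had 244, 176, 230.1 and 235 CPM in WT and 231, 189, 224 and 225 CPM in KO. Phf8 had 25.5, 17.2, 28.8 and 28.5 CPM in WT and 31.1, 20.7, 30.2 and 35.6 CPM in KO, higher in KO in 4 of 4 numbers (0.23, SE 0.22; with the block edgeR adjusted p = 0.446). With 1 library left out the Phf8 value ran from 0.09 (without WT 2) to 0.37 (without KO 2).

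A list of 50 genes was written down from general knowledge as reported targets of miR-22, with earlier results of these data known. Counts over it are therefore a description and support no enrichment or direction. Of the 50, 49 were matched, 42 were expressed enough to be tested and 38 had a converted 3′ UTR group of any kind. A miR-22 site was present in 11, among them Rgs2, Lamc1, Sirt1, Kdm6b, Rcor1, Max, Ywhaz, Ptafr, Arrb1 and Phf8. Over all matched genes with converted 3′ UTR groups, 197 of 6267 had such a site. In 8 of the 11 members stood in both libraries, though in Lamc1, a laminin chain, at different places (32 reads in WT, 27 in KO), and 6 held an 8mer. The site of the deacetylase gene Sirt1 had 131 and 64 reads, that of the corepressor gene Rcor1 264 and 174, that of Max, the partner of MYC, 234 and 168, and that of Arrb1 (beta-arrestin 1) 30 and 25. Kdm6b, a histone demethylase, had 10 reads in KO alone. Among the 42 tested, 32 had a log2 fold change above 0 (background 49.6%) and 10 one below 0. edgeR called 0 with or without the block. In edgeR with the block, 7 had an unadjusted p under 0.05 and were higher, and 0 were lower (background 4.9% and 4.52%). DESeq2 with the block called 1, Ptafr, higher in KO (background 0.585%). The median log2 fold change of the 42 was 0.07. For the 11 with a site it was 0.07, with 9 above 0. For the 15 tested genes of the miRNA silencing machinery, such as Argonaute, TNRC6 and DICER genes, the median was 0.03 and 0 were called. Kdm6b, with 60.7, 88.1, 25.3 and 27.9 CPM in WT and 76.4, 106, 32.4 and 30.6 CPM in KO, shows how much more the numbers differed than the genotypes. Of the 197 genes together, 105 differed between numbers 3 and 4 and numbers 1 and 2. That is close to the share over all genes tested (background 51.2%), so it is not particular to these genes.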

How the data were processed

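mRNA, small RNA and AGO2 PAR-CLIP files were used as deposited. Per the submitters' processing notes CASAVA 1.8.2, Bowtie 0.12.7 and build mm9 were used. Which program counted reads or joined groups is not given in these sources. Per the file headers the mRNA tables hold a count and an RPKM value per gene, the small RNA tables a count per miRNA (the header of KO 4 names KO4 over the counts and KO2 over another column, and the counts were used), and the group tables a read count and conversion counts per group. The deposited groups have at least 5 reads.

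Seed matches were searched in the group sequences, with miRNAs read from RefSeq. Gene names were matched to Ensembl IDs by symbol (180) or synonym (17). Samd4b was not matched. Mir22hg is not analysed here. Counts of 21444 genes were filtered with filterByExpr (14019 kept), scaled by TMM and tested by edgeR 4.0.16 quasi-likelihood fits on genotype alone with Benjamini-Hochberg adjustment over all genes tested (threshold 0.05), in R 4.3.3. CPM are TMM-scaled. The same was done for 369 miRNAs. Alternatives were DESeq2 1.42.0, the number as a block, other scaling and filters, single libraries left out, and other read, conversion, match and overlap conditions for groups. Deviations of same-numbered WT and KO libraries from their group means correlated at 0.832, 0.859, 0.774 and 0.832, so the number was used as a block. The labels give no pairing. The crossed pairs WT 3 with KO 4 and WT 4 with KO 3 correlated at 0.808 and 0.862, so 3 and 4 are not separated one to one by these values, while WT 1 with KO 2 and WT 2 with KO 1 were at 0.242 and 0.359. The fits were tested on simulated data. Shares have exact Clopper-Pearson intervals (95%). Reads may include PCR copies.

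Genes were named by these rules: the 10 shared sites with most reads, the 5 leading sites of each library alone, genes with at least 3 sites, called genes, the 5 highest and 5 lowest fold changes, the 5 highest RPKM, reported targets with a site (1 is not reported here), Elavl1 and Lyz2. Members and lists were chosen with earlier results of these data known.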

Additional observations from a re-analysis of the deposited data

Results flagged for a closer look

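In 6 of 80 groups of 4 mRNA libraries, taken over the named genes, 1 library stood far from the other 3; chance gives this in about 1 in 20 groups. Tns3 had 235 CPM in WT 2 while WT 1, 3 and 4 lay at 307 to 309, and KO 2 was the lowest KO library, at 237. Ywhaz had 189 CPM in KO 2 against 224 to 231, and Klf6 had 233 CPM in KO 2 against 277 to 282. Clp1 had 17.5 CPM in WT 4 against 19.2 to 19.3. Pdp2 had 22.4 CPM in KO 1 against 12.2 to 13.2, and Max had 147 CPM in KO 1 against 101 to 108. KO 1 had the lowest total of the mRNA libraries, 8160789 counts; the part of depth in these values was not tested.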

How the results depend on the processing

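The number of called genes with miR-22 sites stayed at 0 under every alternative run except DESeq2 with the replicate block, where it was 2. With the replicate block in edgeR, which pairs libraries by number, the median log2 fold change of the 197 genes was 0.033; the block changed no edgeR call among them. Without a block, the median was 0.015 in numbers 3 and 4 alone. It was 0.0042 to 0.0415 with single libraries left out (lowest without KO 3, and 0.0069 without KO 1). With the block and 1 number left out, it was 0.0345 to 0.0425 (highest without number 3). Slc30a4 and Rgs2, among the lowest and highest fold changes of the 197 genes, changed sign, as did Tns3, Dhrs9 and Ptger4. In numbers 1 and 2 alone Slc30a4 was 0.028 and Ptger4 -0.0025, and in numbers 3 and 4 alone Tns3 was -0.018. With single libraries left out the range was -0.047 to 0.135 for Tns3, -0.666 to 0.871 for Dhrs9, -0.0165 to 0.233 for Ptger4, -0.588 to 0.0825 for Slc30a4 and -0.0266 to 0.791 for Rgs2. With the block, Tns3 was -0.0029 without number 1 and Dhrs9 -0.119 without number 3. The small RNA value of miR-22-3p kept its sign (-0.39 to -0.08).

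Members numbered 46 in WT and 24 in KO with at least 2 conversion locations, and 39 and 25 with 8mers alone. Their share was 1.16% and 1.11% at 20 reads or more, 1.06% in WT with at least 2 conversion locations, 0.203% and 0.176% for 8mers alone, and 0.63% and 0.71% without 7mer-A1. The shared part was 32.6% in WT with at least 2 conversion locations, and 61.0% and 72.8% against any listed group. For 8mers alone it was 88.0% in KO, where 22 of 25 members were shared, while in WT 22 of 39 members were. Scaling to 3′ UTR reads and the comparison by summed reads were chosen after seeing the data. The part of depth in the overlap of groups with few reads was not tested, and 1 library per genotype limits every PAR-CLIP comparison.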
